A study of Mus musculus with 3 samples.

Results

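The cell division genes described here are 46 genes of DNA replication and mitosis, taken by symbol from a list, out of the 55536 genes of the deposited gene tables. They fall into 14 regulators of the G1 phase, 18 genes of the S phase, in which DNA is copied, and 14 genes of mitosis. RNA was measured in the chromatin fraction of bone-marrow-derived macrophages, primary cells of the mouse strain C57BL/6J. All 3 libraries belong to 1 group: cells had met 100 ng per ml of Lipid A, the part of bacterial lipopolysaccharide sensed by TLR4, for 12 h, had spent 12 h after its washout, and were taken at minute 0 of another exposure. Neither untreated cells nor other times are part of the series, so every value is a level in this state. The labels call the libraries biological replicates 1, 2 and 3, give them 1 donor identifier and do not say whether separate animals were used, so the spread between them may be technical. Sex and age were not collected.

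A cell leaves G1 when D-type cyclins, bound to Cdk4 or Cdk6, phosphorylate the retinoblastoma protein, which then releases E2F factors that switch on replication genes. The inhibitors p21 and p27, encoded by Cdkn1a and Cdkn1b, hold this step back. Mitotic genes are switched on later in the cycle, largely through a CHR element and CCAAT boxes near their start sites. Macrophages grown from bone marrow divide in response to the growth factor CSF1, and activation of TLR4 is known to arrest that division.

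The libraries held 11958978, 17283529 and 19475027 expected counts in replicates 1, 2 and 3, made from 1000, 250 and 500 ng of RNA. Where 3 values are joined below, they are those of replicates 1, 2 and 3 in that order, and ± gives the SD over the libraries (n = 3) after their mean. All 12 macrophage markers reached at least 1 TPM in each library, and Adgre1, encoding the F4/80 antigen, was at 287, 434 and 320.1 TPM. TPM is a level per transcript length, scaled so that every library has the same sum. Replicate 3 stood apart: the 11 fibroblast and stromal markers summed to 2.12, 3.00 and 631 TPM, with 6, 2 and 0 of them at 0. Col1a1, a chain of type I collagen, was at 0.01, 0.43 and 149 TPM. Summed levels of the erythroid, B cell, T cell and neutrophil lists lay between 0.10 and 1.42 TPM in each library, with Epor, Ebf1, Lck and Ngp as their highest members at means of 0.607, 0.303, 0.263 and 0.250 TPM. Myeloid progenitor markers summed to 1.65, 0.49 and 2.77 TPM, with Kit highest at a mean of 0.793 TPM and Mpo and Ctsg at 0 in all 3. Of 6 endothelial markers, Vwf, Kdr and Egfl7 reached 1 TPM throughout, Vwf at 26.8 ± 5.17 TPM, while Tie1, Emcn and Cdh5 were at or near 0.

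The start sites of these genes are described first. The share of promoters with an E2F word or a CHR word differed by class, a difference that was not tested. RefSeq promoters (GRCm38.p6, 250 bases before to 50 after a start) were found for 36 of the 46 members. Both strands were searched for 4 E2F words, TTTCCCGC, TTTCGCGC, TTTGCCGC and TTTGGCGC, for the CHR word TTTGAA, for CCAAT and for the GC box GGGCGG. E2F words can overlap each other. An E2F word stood in the promoters of 7 of 15 S phase genes, 1 of 9 G1 regulators and 1 of 12 mitotic genes, against 2.60% of 27025 genes in the table. The 7 were Mcm3, Mcm5, Mcm6, Mcm7, Cdc6, Cdt1 and Pola1. The CHR word stood in 9 of 12 mitotic promoters, 2 of 15 S phase promoters and 1 of 9 promoters of G1 regulators, against 20.2% of all. Those 9 mitotic promoters also held a CCAAT box, a pair found in 8.97% of all promoters. GC boxes were common to the classes, at 8 of 9, 11 of 15 and 10 of 12, against 38.2% of all. A match is a run of letters and not a shown binding site, and base composition was not matched between members and the other genes.

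E2F words are shown for 6 of the 7 S phase genes that carry one, since the share with this motif was highest in that class, although 8 of its 15 promoters lack it. Capitals mark the copy of the word nearest to the start. Mcm3, Mcm5, Mcm6 and Mcm7 hold further copies, which are not marked. The distance from the start site to the first base of the marked copy differs from gene to gene. In Mcm6 (chr1:128359733-128359764, minus strand) it began at -47, in Cdc6 (chr11:98908001-98908032, plus strand) at -138 and in Pola1 (chrX:93632274-93632305, minus strand) at -138. In Mcm5 (chr8:75109348-75109379, plus strand) it began at -149, in Mcm3 (chr1:20820283-20820305, minus strand) at 20 and in Mcm7 (chr5:138171854-138171879, minus strand) at 17 within the transcribed part. Position 1 is the RefSeq start and -1 the base before it. For Mcm5 and Mcm6 the bases after that start matched no GENCODE M21 transcript, and all distances given are from the RefSeq start.
Mcm6: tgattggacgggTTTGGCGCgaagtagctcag
Mcm5: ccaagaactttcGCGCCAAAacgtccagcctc
Pola1: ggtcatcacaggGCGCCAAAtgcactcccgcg
Mcm7: tgggtgacgacgTTTCGCGCcaattt
Cdc6: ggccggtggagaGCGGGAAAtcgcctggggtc
Mcm3: taaacttccgtgGCGGGAAAact

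The CHR word of 6 of the 9 mitotic genes that carry it is shown in the same way. In 5 of the 6 shown, its nearest copy began within 25 bases of the start. These were Ccnb2 (chr9:70421533-70421562, minus strand) at 5, Cdk1 (chr10:69352910-69352939, minus strand) at -15, Cdc20 (chr4:118437344-118437373, minus strand) at -18, Kif11 (chr19:37376351-37376380, plus strand) at -19 and Top2a (chr11:99024195-99024224, minus strand) at -23. In Mki67 (chr7:135716460-135716489, minus strand) it began at -98. Among the genes shown, the RefSeq starts of Ccnb2, Kif11 and Mki67 likewise matched no GENCODE M21 transcript. Plk1, Aurka and Bub1b carry the CHR word further downstream, at 31, 33 and 41. They are not shown, because printed sequence ends 30 bases after the start.
Ccnb2: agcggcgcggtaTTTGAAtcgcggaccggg
Cdk1: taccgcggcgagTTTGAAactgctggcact
Cdc20: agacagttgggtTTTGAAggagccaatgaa
Kif11: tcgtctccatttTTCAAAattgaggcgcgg
Top2a: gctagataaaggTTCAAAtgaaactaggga
Mki67: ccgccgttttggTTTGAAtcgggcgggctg

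A promoter is given whole for an S phase gene and a mitotic gene, by a rule that takes the member of a class with the most kinds of motif. Mcm2 is the first in list order of 6 S phase genes tied at 3 kinds, with Mcm3, Mcm6, Mcm7, Cdc45 and Pola1, and stands among the S phase promoters with no E2F word. The Mcm2 promoter (chr6:88898751-88899030, minus strand) held a CCAAT box, a CHR word and 2 GC boxes. The Cdk1 promoter (chr10:69352883-69353162, minus strand) held all 4 motifs in 8 matches: 1 E2F word, 2 CHR words, 2 GC boxes and 3 CCAAT boxes. Both are written from 250 bases before the start to 30 bases after it, with matches in capitals on whichever strand they lie.
Mcm2: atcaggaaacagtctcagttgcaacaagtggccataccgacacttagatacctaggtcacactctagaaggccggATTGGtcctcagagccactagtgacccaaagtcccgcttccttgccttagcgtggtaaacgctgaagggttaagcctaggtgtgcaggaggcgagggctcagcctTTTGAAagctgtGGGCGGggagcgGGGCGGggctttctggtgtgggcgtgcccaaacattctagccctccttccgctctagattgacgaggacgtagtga
Cdk1: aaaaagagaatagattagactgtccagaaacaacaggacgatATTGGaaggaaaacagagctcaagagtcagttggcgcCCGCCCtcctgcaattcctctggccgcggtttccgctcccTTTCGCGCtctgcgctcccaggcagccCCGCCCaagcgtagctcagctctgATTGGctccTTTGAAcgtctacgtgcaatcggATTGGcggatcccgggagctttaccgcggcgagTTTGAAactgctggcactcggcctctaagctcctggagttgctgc

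RNA of the division genes was present on chromatin in steps of decreasing level from G1 to mitosis. The G1 regulators had a median of 6.57 TPM, the S phase genes 3.88 TPM and the mitotic genes 1.39 TPM, beside 0.913 TPM over all 22028 protein-coding genes. A level of at least 1 TPM in each library was found for 12 of 14 G1 regulators, 15 of 18 S phase genes and 6 of 14 mitotic genes, 33 of the 46 in all (46.1% of protein-coding genes). A mean of 10 TPM or more was reached by 5 G1 regulators, 1 S phase gene and no mitotic gene, against 27.2% of protein-coding genes. In bulk RNA, a smaller number of dividing cells and less RNA in each of them cannot be told apart.

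The order of the classes was the same in each library. Median log2(TPM + 1) was 2.51, 2.97 and 3.51 for G1 regulators, 2.09, 2.47 and 2.23 for S phase genes and 0.87, 1.17 and 1.52 for mitotic genes. S phase genes exceeded mitotic genes by 1.22, 1.30 and 0.71 and G1 regulators exceeded mitotic genes by 1.64, 1.80 and 1.99, which is more than the SD between libraries of each median (0.50, 0.19 and 0.32). G1 regulators exceeded S phase genes by 0.41, 0.50 and 1.28, which in replicates 1 and 2 did not pass the SD of the G1 median. Without replicate 3 the 3 medians were 2.74, 2.30 and 0.97. These are descriptions of chosen genes in 3 libraries, with no test over genes.

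**Figure D1:**
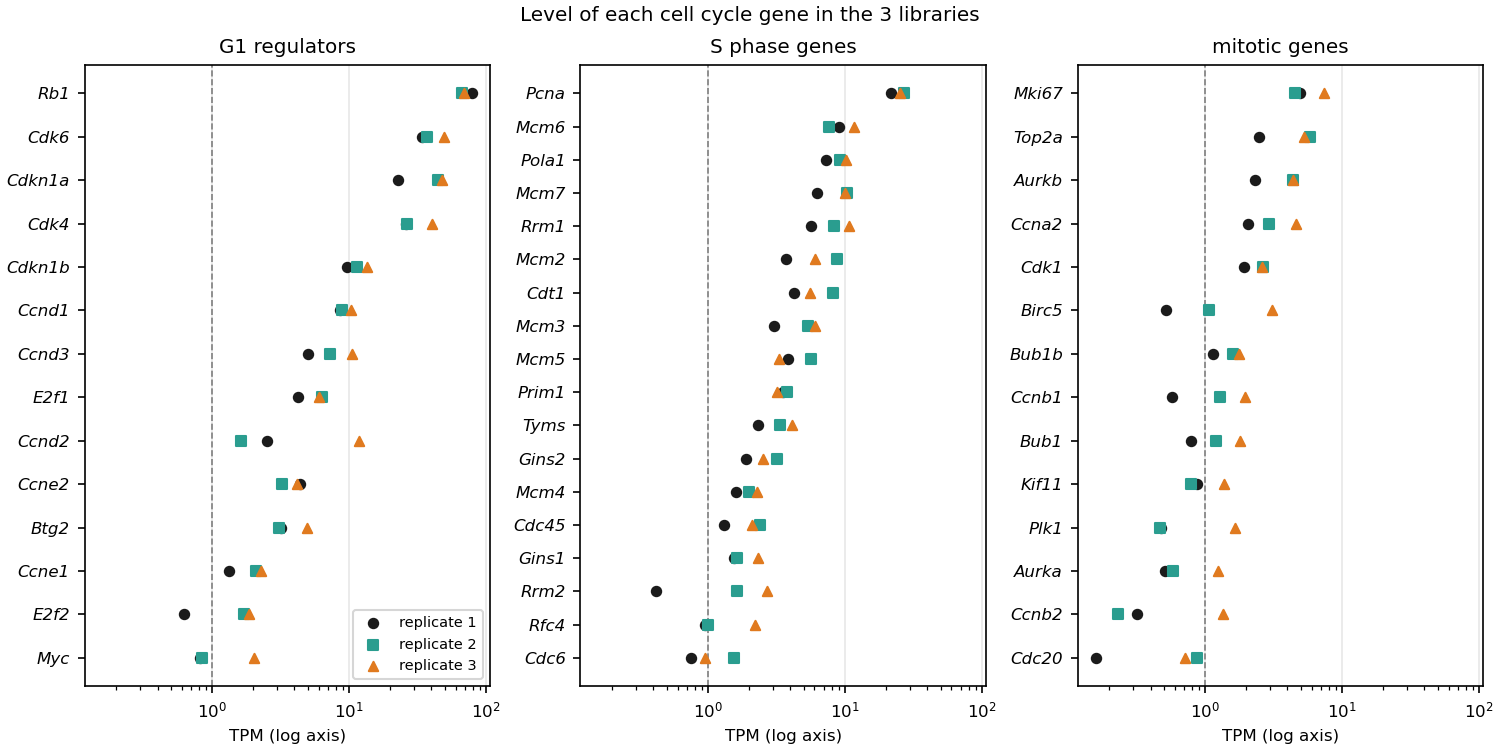
TPM of every member in each library on a log axis, ordered by mean within its class, with 1 TPM as a dashed line. G1 regulators reach 71.6 TPM on average, S phase genes 24.7 TPM and mitotic genes 5.62 TPM.

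Among the G1 regulators, 3 of 4 brakes lay above the class median of 6.57 TPM, and Btg2 below it. Rb1, encoding the retinoblastoma protein (chromosome 14, 73183673 to 73325822, minus strand, mm10), was the highest member at 78.9, 67.4 and 68.6 TPM. Cdkn1a, encoding p21, stood at 22.7, 45.0 and 47.4 TPM and Cdkn1b, encoding p27, at 9.66, 11.4 and 13.4 TPM. Replicate 1 was well below the others for Cdkn1a, at 29.7 CPM (counts scaled to library size by the TMM method) against 46.7 and 53.7. Btg2, an antiproliferative gene, was at 3.19, 3.10 and 4.91 TPM.

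The kinase partners of the D-type cyclins were also among the highest. Cdk6 stood at 34.1, 37.3 and 49.6 TPM. Its relative Cdk4 stood at 26.2, 26.7 and 40.4 TPM, with replicate 3 the highest for both. Rb1, Cdk6, Cdkn1a and Cdk4 were the 4 highest members by mean, at 71.6 ± 6.29, 40.4 ± 8.16, 38.4 ± 13.6 and 31.1 ± 8.05 TPM. The range of Rb1 did not meet that of the other 3, while those of Cdk6, Cdkn1a and Cdk4 overlapped.

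All 3 D-type cyclins, the partners of these kinases, were detected. Ccnd1 was even across the libraries at 8.61, 8.83 and 10.33 TPM. Ccnd3 was at 4.98, 7.31 and 10.45 TPM. Ccnd2 was not even, at 2.54, 1.62 and 11.86 TPM, with replicate 3 alone above the level of Ccnd1. The 3 summed to 16.1, 17.8 and 32.6 TPM.

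Cyclin E genes and the factors that switch on S phase were lower. Ccne2 was at 4.40, 3.25 and 4.16 TPM. Ccne1 was at 1.34, 2.08 and 2.26 TPM. The activating E2F gene E2f1 stood at 4.22, 6.34 and 6.09 TPM, and replicate 1 was the lowest library for it, as it was for Ccne1. E2f2, the other activating E2F gene of the list, was at 0.62, 1.72 and 1.86 TPM, from 33, 108 and 144 counts. Myc, a growth-promoting transcription factor gene, was the lowest G1 regulator at 0.82, 0.85 and 2.04 TPM. Its counts of 18, 21 and 71 set replicate 3 above the other two.

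In S phase, the sliding clamp gene Pcna was the highest member (chromosome 2, 132249162 to 132253314, minus strand, mm10). It stood at 21.8, 26.9 and 25.5 TPM, with overlapping counting error after scaling (16.7, 16.9 and 18.9 CPM). The next were Mcm6 at 9.46 ± 2.02 TPM, Pola1 at 8.92 ± 1.49 TPM and Mcm7 at 8.91 ± 2.27 TPM. These 3 could not be ranked, since their ranges overlapped.

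The 6 genes of the replicative helicase, Mcm2 to Mcm7, all reached at least 1 TPM in each library, although their proteins form a complex with 1 copy of each subunit and their RNA levels spanned from 1.96 to 9.46 TPM on average. Mcm6 was at 9.08, 7.65 and 11.64 TPM. Mcm7 was at 6.29, 10.37 and 10.06 TPM. Mcm2 (chromosome 6, 88883474 to 88898780, minus strand) was at 3.69, 8.79 and 6.10 TPM. Replicate 1 was the lowest for the latter pair, and the Mcm7 gene also contains 3 microRNA genes. Mcm3 was at 3.02, 5.35 and 6.07 TPM. Mcm5 was at 3.82, 5.63 and 3.28 TPM. Mcm4, the lowest of the 6, was at 1.61, 1.99 and 2.27 TPM. Ranges of Mcm4 and Mcm6 did not meet, while Mcm2, Mcm3 and Mcm5 overlapped each other.

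Genes that load and start the helicase averaged below Mcm6 and Mcm7. The loader gene Cdt1 was at 4.27, 8.18 and 5.59 TPM, and its partner Cdc6 was the lowest S phase gene at 0.75, 1.54 and 0.96 TPM. Cdc45, which completes the active helicase, was at 1.30, 2.41 and 2.09 TPM. Of the GINS subunits that join it, Gins2 was at 1.89, 3.17 and 2.52 TPM and Gins1 at 1.54, 1.64 and 2.34 TPM. Replicate 2 was the highest library for Cdt1, Cdc6, Cdc45 and Gins2, and replicate 3 for Gins1.

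The enzymes of DNA synthesis came next. Pola1, the catalytic subunit of DNA polymerase alpha, stood at 7.32, 9.18 and 10.27 TPM. Prim1, the primase that works with it, was at 3.53, 3.81 and 3.22 TPM, the smallest SD of log2(TPM + 1) among S phase genes, while in CPM Pola1 and Pcna varied less (coefficients of variation of 5.85% and 6.83% against 7.71%). Rfc4, a subunit of the clamp loader, was at 0.95, 1.01 and 2.20 TPM, from 12 counts in each of replicates 1 and 2. Of the nucleotide-making enzymes, Rrm1, the large subunit of ribonucleotide reductase, was at 5.68, 8.38 and 10.68 TPM. Its small subunit Rrm2, whose RNA is known to rise in S phase, was at 0.42, 1.62 and 2.69 TPM, from 6, 22 and 55 counts. Tyms, encoding thymidylate synthase, was at 2.33, 3.37 and 4.14 TPM. All 3 were lowest in replicate 1 and highest in replicate 3 on the TPM scale.

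Mitotic genes were led by Mki67, the gene of the Ki-67 antigen (chromosome 7, 135689784 to 135716361, minus strand, mm10), at 4.97, 4.53 and 7.35 TPM. Top2a, the topoisomerase that untangles sister chromosomes, followed at 2.47, 5.81 and 5.32 TPM. Aurkb, the kinase of the chromosomal passenger complex, was at 2.30, 4.38 and 4.39 TPM. Its partner Birc5, encoding survivin, was at 0.52, 1.07 and 3.09 TPM. Both were lowest in replicate 1, and Birc5 had the largest SD of log2(TPM + 1) in the class, 0.73.

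The cyclin-dependent kinase of mitosis, Cdk1, stood at 1.92, 2.65 and 2.60 TPM and had the smallest SD of log2(TPM + 1) in its class, 0.18. Ccna2, encoding cyclin A2, was at 2.05, 2.95 and 4.62 TPM. Ccnb1 was at 0.57, 1.29 and 1.95 TPM. Ccnb2 was at 0.32, 0.23 and 1.36 TPM, from 5, 4 and 30 counts. All 3 cyclin genes were highest in replicate 3. Together they summed to 2.94, 4.47 and 7.93 TPM, below the D-type cyclins in each library.

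Spindle and checkpoint genes were among the lowest of the members. Bub1b, a checkpoint component, was at 1.15, 1.59 and 1.77 TPM, and the checkpoint kinase gene Bub1 at 0.79, 1.20 and 1.79 TPM. Kif11, a spindle motor gene, was at 0.87, 0.79 and 1.37 TPM. Aurka, a spindle pole kinase gene, was at 0.51, 0.58 and 1.24 TPM. Plk1, a kinase gene with roles throughout mitosis, was at 0.48, 0.47 and 1.65 TPM, from 6, 9 and 38 counts. The lowest member was Cdc20, the activator of the anaphase-promoting complex, at 0.16, 0.88 and 0.71 TPM. With 3, 7 and 19 counts, it was the only member under 1 TPM in all 3 libraries, and no member was at 0 in any library.

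Other genes of the same pathways, which are not members, showed the same fall from the first classes to mitosis. Among 32 other genes of G1 control and the RB and E2F network, 26 reached at least 1 TPM in each library, and the median was 8.81 TPM. The highest were Mdm2, a p53 inhibitor, at 176 ± 20.97 TPM, Max, the partner of Myc, at 105 ± 11.7 TPM and Mxd1, a Myc antagonist, at 33.7 ± 3.16 TPM, and the lowest was the repressor gene E2f7 at 0.573 ± 0.0850 TPM. Among 42 other replication genes, 36 did so, with a median of 6.93 TPM. Rfc2, another clamp loader subunit, stood at 88.9 ± 12.7 TPM, and the origin recognition genes Orc3 and Orc4 at 74.1 ± 3.87 and 72.3 ± 9.71 TPM, above Rfc4 and Cdc6. The uracil glycosylase gene Ung was the lowest at 0.473 ± 0.277 TPM. Of 42 other mitosis genes, 25 did so, with a median of 2.21 TPM. The condensin gene Smc4 was at 42.6 ± 6.82 TPM, Incenp, of the same complex as Aurkb, at 42.4 ± 6.15 TPM, and Fzr1, which acts on the anaphase-promoting complex in G1, at 29.4 ± 7.13 TPM, while the phosphatase gene Cdc25c was at 0.137 ± 0.1002 TPM.

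The libraries were then compared with each other for each class, in TMM-normalized CPM. Members averaging 10 counts or more entered, 45 in all, which leaves out Cdc20. Replicate 3 was the highest library for all 13 mitotic genes, for 11 of 14 G1 regulators and for 10 of 18 S phase genes (41% of protein-coding genes were highest there). Replicate 1 was the lowest for 9 mitotic genes, 12 S phase genes and 6 G1 regulators, against 42.4%. Mitotic genes had a median log2 ratio of -0.86 for replicate 1 over 3 and -0.64 for replicate 2 over 3, beside -0.08 and -0.06 for all protein-coding genes. For G1 regulators these were -0.43 and -0.36, and for S phase genes -0.29 and -0.09. Lower in replicate 1 than in replicate 3 were 13 of 13 mitotic genes, 12 of 14 G1 regulators and 16 of 18 S phase genes (59.1% of protein-coding genes). Lower in replicate 2 than in replicate 3 were again 13 of 13 mitotic genes, with 13 of 14 G1 regulators and 10 of 18 S phase genes (57.5%). The other pathway genes, which are not members, shifted less. Replicate 3 was the highest library for 26 of 38 other mitosis, 13 of 31 other G1 and 11 of 42 other replication genes. Their median log2 ratios of replicate 1 over 3 were -0.45, -0.10 and -0.06 in that order. Those of replicate 2 over 3 were -0.25, -0.20 and 0.01. Stromal markers moved with replicate 3 as well (2.12, 3.00 and 631 TPM), and their part in these differences was not tested.

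Between replicates 1 and 2, in which the stromal list was near 0, the classes also differed. The median log2 ratio of replicate 1 over 2 was -0.36 for mitotic genes, -0.30 for S phase genes and 0.12 for G1 regulators, beside -0.02 for all protein-coding genes. Lower in replicate 1 than in replicate 2 were 14 of 18 S phase genes, 9 of 13 mitotic genes and 6 of 14 G1 regulators (52.3% of protein-coding genes). Mcm2, at 6.35, 14.2 and 9.77 CPM, was 2.22-fold higher in replicate 2 than in replicate 1, a ratio that among S phase genes only Rrm2 exceeded (2.41-fold). Pcna, Pola1, Mcm6 and Prim1 differed by at most 1.22-fold between any 2 libraries.

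Larger differences, of 2-fold or more, were counted next. From replicate 1 to 3, 9 members were at least 2-fold lower in replicate 1: 3 G1 regulators, 1 S phase gene and 5 mitotic genes (11.4% of protein-coding genes). From replicate 2 to 3 there were 5 (9.8%), and from replicate 1 to 2 there were 3 (2.99%). The mitotic genes past 2-fold between replicates 1 and 3 were Plk1 at 3.33-fold, Ccnb2 at 3.10-fold, Ccnb1 at 2.65-fold, Birc5 at 2.43-fold and Bub1 at 2.20-fold. All 5 had under 20 counts in replicate 1. The coefficient of variation between libraries had a median of 29.7% for mitotic genes, 22.8% for G1 regulators and 18.2% for S phase genes, beside 14.9% for protein-coding genes. Low counts alone raise this coefficient, and it was not adjusted for abundance. Median log2 CPM was 0.76, 1.52 and 1.79 for mitotic genes, against 3.86, 3.89 and 4.07 for protein-coding genes. In the edgeR test below, made against genes of like abundance, 0 of 11 mitotic genes tested had an unadjusted p under 0.05.

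**Figure D2:**
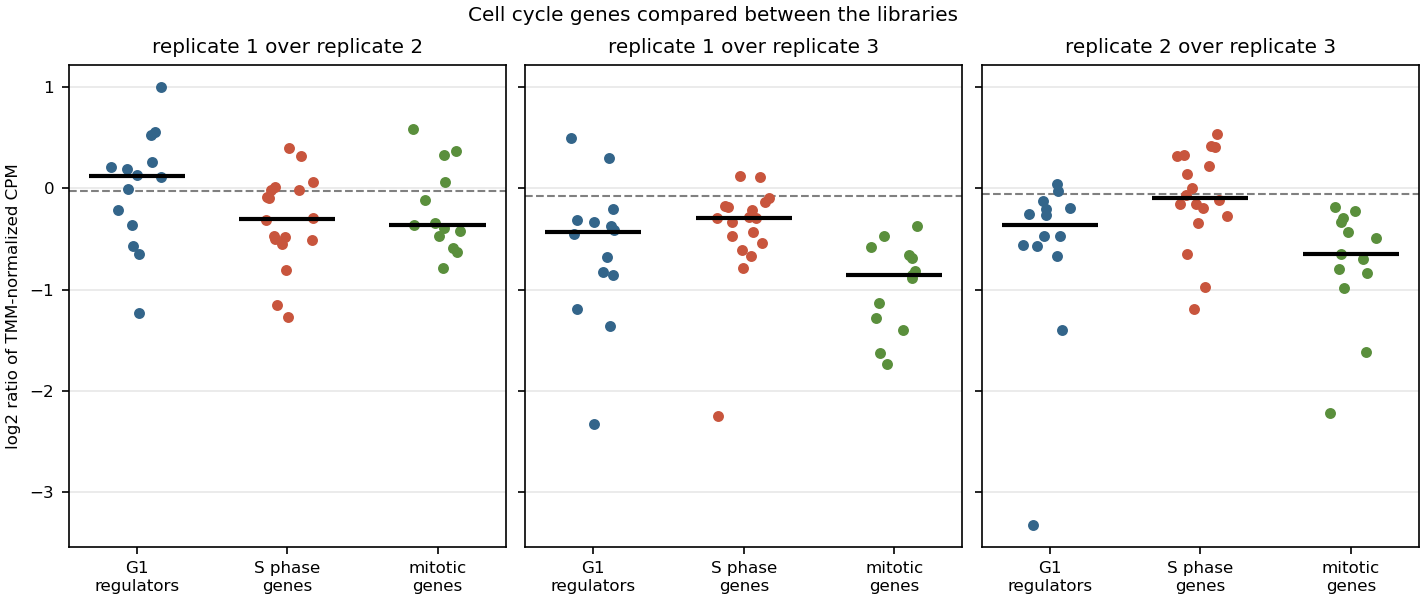
Log2 ratio of TMM-normalized CPM between each pair of libraries for members averaging 10 counts or more (1 point a gene, bars for class medians, dashed lines for the median of all protein-coding genes). Every mitotic gene lies under 0 where replicate 3 is the divisor, while S phase genes lie on both sides of 0 for replicate 2 over 3.

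With 1 group, the test that the design allowed was whether a gene varied between libraries more than genes of its abundance. In edgeR's quasi-likelihood fit, 24 of 14839 genes did so (0.162%, Benjamini-Hochberg adjusted p under 0.05). The filter on low counts asked for counts in every library. Genes nearly absent from any library, such as Col1a1, were therefore not tested. With no such filter, 675 of 25532 genes were called. Of 42 members tested, 1 was called, Ccnd2 (edgeR adjusted p = 0.0485). The filter on low counts left out Cdc20, Rrm2, Ccnb2 and Plk1, each over 2-fold lower in replicate 1 than in replicate 3. Only Ccnd2, Cdkn1a and E2f2 had an unadjusted p under 0.05 in this fit, which 5.81% of all genes tested had. None of the other pathway genes was called by edgeR, among 28, 41 and 34 tested in the G1, replication and mitosis lists, and 1 in each list had an unadjusted p under 0.05. The filter removed further genes of these lists, so the fit says nothing about them. Among those removed were Cdkn1c and Ube2c, 67.7-fold and 13.0-fold higher in replicate 3 than in replicate 1.

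Ccnd2 (chromosome 6, 127125162 to 127152193, minus strand, mm10) had 136, 92 and 1144 expected counts, or 11.4, 5.65 and 57.3 CPM. Replicate 3 was 5.01-fold above replicate 1 and 9.996-fold above replicate 2, whereas Ccnd1 and Ccnd3 were 1.26-fold and 1.60-fold above replicate 1 there. The call depended on the setting. It held with RLE size factors (edgeR adjusted p = 0.0385) and with no filter on low counts (0.000228). Without replicate 2 the edgeR adjusted p was 0.559, without replicate 3 it was 0.587, and in the read-based counts it was 0.217. With the prior of the fit estimated without robust weights, a setting chosen after seeing the data, it was 0.191. Without replicate 1 it was 0.0427. The read-based TPM of Ccnd2 was 11.7, 4.19 and 16.9, so that replicate 3 led replicate 1 by less there. The stromal markers, with 6, 2 and 0 of 11 at 0, were high in the same library, and their part in the result was not tested. Ccnd2 also overlaps the genes 9330179D12Rik and Gm43126.

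The deposited files hold a read-based quantification of the same libraries, which assigns reads to transcripts by an index and not by alignment. It placed the division genes somewhat higher, by a median of 1.14-fold for G1 regulators, 1.34-fold for S phase genes and 1.42-fold for mitotic genes, beside 1.33-fold for protein-coding genes of 0.5 TPM or more. For 11 of the 46 it was more than 2-fold higher, where 19.9% of protein-coding genes were. More than 4-fold higher were Cdk1, Rfc4 and Birc5 (4.44% of protein-coding genes). The read-based level of Cdk1 was 14.1, 16.3 and 16.6 TPM, and 76.0% of it lay in a short annotated protein-coding transcript of 695 bases. Read-based Birc5 was at 9.37, 7.93 and 9.68 TPM, and without the low replicate 1 of the gene table. Rfc4 was at 8.46, 6.98 and 8.93 TPM, 59.0% of it in a retained-intron transcript of 449 bases. In this quantification Cdk1 was the highest mitotic gene at 15.7 ± 1.38 TPM, and Top2a (9.02 ± 2.58 TPM) and Birc5 (8.99 ± 0.936 TPM) also averaged above Mki67 (6.06 ± 1.81 TPM).

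**Figure D3:**
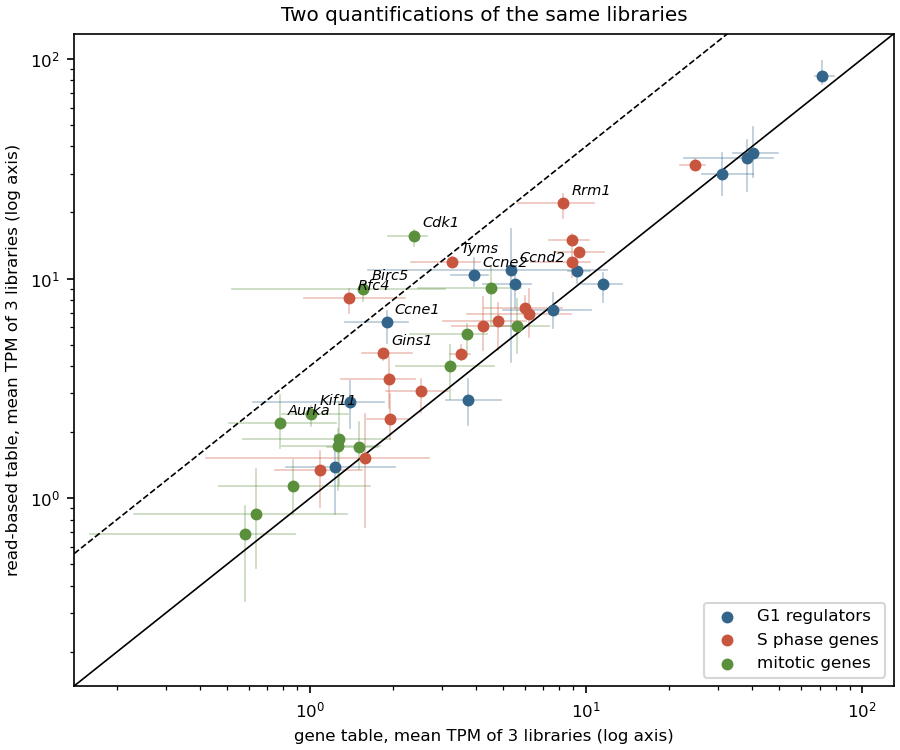
Mean TPM of each member in the gene table against the read-based table, both on log axes, with thin lines from the lowest to the highest library. The solid line marks equal levels and the dashed line a 4-fold higher read-based level, above which lie Cdk1, Rfc4 and Birc5, and members over 2-fold are named.

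Transcripts annotated as retained intron, which keep an intron of the gene, took a share of these genes' RNA near that of other protein-coding genes. Among the 31 of 46 members with such a transcript and at least 1 TPM, its median share of the gene's read-based TPM was 48.7%, beside 45.8% for protein-coding genes. It exceeded 50% in 15 of 31 members, where 44.2% of protein-coding genes did so. By class the median share was 36.4% over 7 G1 regulators, 52.1% over 16 S phase genes and 46.8% over 8 mitotic genes. In the alignment-based transcript table it was 40.02%, 52.5% and 39.1%. RNA not yet spliced and transcripts that keep an intron for good cannot be told apart in these tables.

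Single genes differed widely in that share, and for some it depended on the quantification. In the read-based table Cdt1 had the highest at 94.7%, 91.6% and 89.2%, followed by Rrm1 at 88.6%, 89.7% and 82.1%. Among mitotic genes Ccnb1 led at 89.8%, 90.5% and 77.5%, with Aurkb at 76.9%, 72.9% and 78.1%. Cdk4 and Rb1 led the G1 regulators at 68.1% ± 6.37 and 66.0% ± 2.96, whereas Cdk6 had 8.83% ± 1.43. Both kinase genes thus had TPM levels of like size with different transcripts behind them: 31.9% ± 6.37 of the read-based level of Cdk4 and 91.2% ± 1.43 of that of Cdk6 lay in protein-coding transcripts. The highest single transcript of Cdk6 was a short protein-coding one of 697 bases, with 34.3% of the gene's read-based level. In the alignment-based table Gins2 led at 78.7% ± 14.7, with Cdt1 at 74.6% ± 10.4, Ccnb1 at 71.3% ± 11.1 and Rrm1 at 64.8% ± 5.23. Rfc4 was at 0% there and at 59.4% ± 13.4 read-based. Cdk1 was at 55.6% ± 23.2 against 17.5% ± 6.75, and Tyms at 63.3% ± 5.84 against 19.8% ± 1.30. The shares of Cdk4 and Cdk6 were 64.2% ± 9.42 and 9.77% ± 1.34 in the alignment-based table. For Cdk4 and Cdk6 alike, the share thus moved between the quantifications by less than its own SD over the libraries, while these kinase genes stayed far apart. The annotation has no retained-intron transcript for the G1 regulators Ccne2, E2f1, E2f2, Myc, Cdkn1a, Cdkn1b and Btg2. It has none for Mcm4, Gins1, Mki67, Top2a, Ccnb2, Birc5 and Plk1 either, so the share of all these genes is 0 by definition.

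**Figure D4:**
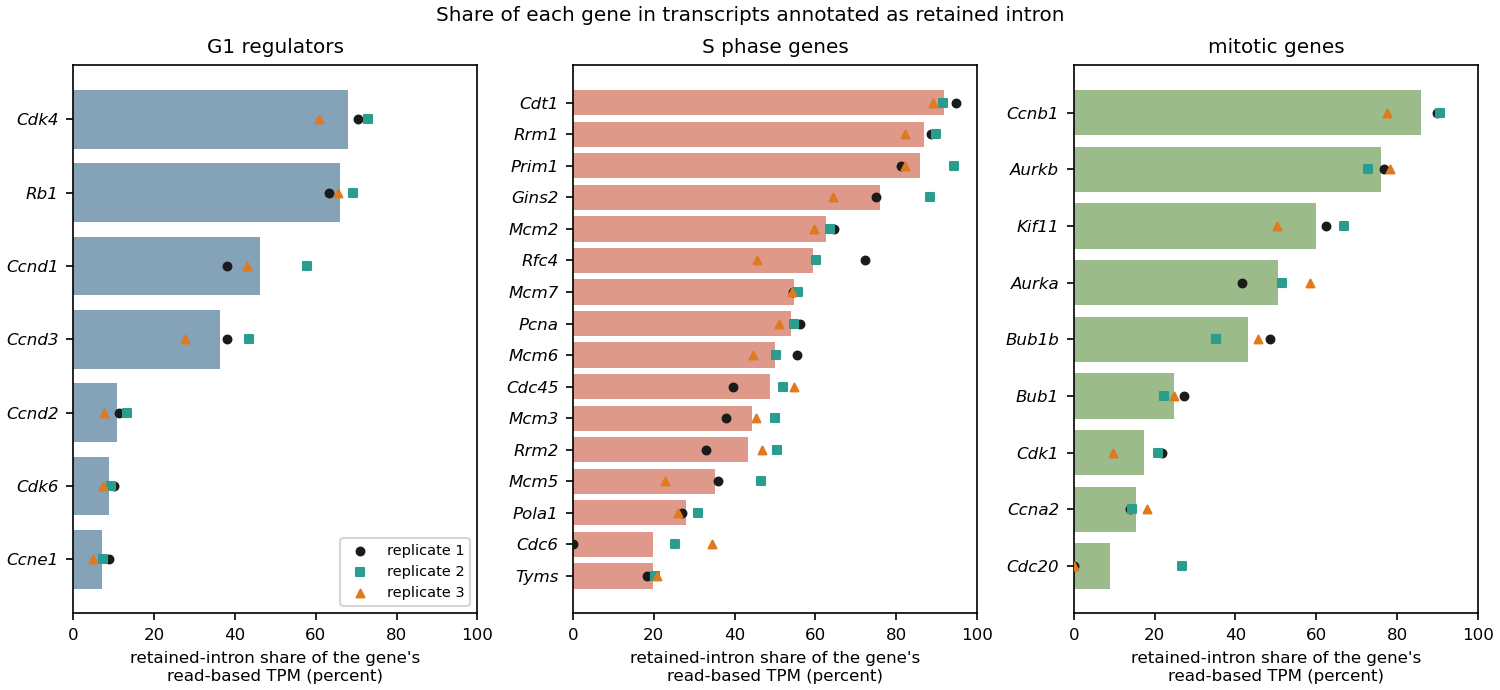
Share of each gene's read-based TPM in transcripts annotated as retained intron, for members that have one, as bars for the mean and points for the 3 libraries. Cdt1, Rrm1 and Prim1 lead the S phase genes and Ccnb1 the mitotic genes, and the points of Cdc6 and Cdc20, both at low counts, spread down to 0.

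The counting could not separate all members from their neighbours. The sources used here do not give the strand setting, and 19 of the 46 overlap a gene on the opposite strand and 7 a gene on the same strand. Such overlaps were not counted over all genes. Processed copies named after Ccnd3, Pcna, Tyms, Ccnb1 and Ccnb2 are annotated elsewhere in the genome and may share their reads.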

How the data were processed

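Chromatin-fraction RNA of 3 libraries of 1 group was analysed. Per the README text that the authors deposited for the libraries, the gene tables and alignment-based transcript tables came from a transcriptome alignment, and the read-based tables from the reads and an index, on mm10 with GENCODE M21. Aligner, quantifier, versions and strand setting were not given in the sources used here. The authors deposited expected counts, which can be fractional, with no normalization. TPM was deposited by the authors over all rows, short RNAs included, so that protein-coding and long non-coding genes of the nuclear genome held 38.4%, 48.2% and 43.0% of it in replicates 1, 2 and 3. A percent per transcript of its gene's TPM and an interval of each TPM, deposited by the authors, were read but only intervals that do not hold their TPM, and those of 1 gene, are given. Rows naming no gene held 1.31%, 0.476% and 0.240% of expected counts and entered neither library sizes nor tests. Read-based estimated counts summed to 18600052, 31838203 and 33200218. Each pair of libraries differed in counts by more than sampling noise (chi-square over its degrees of freedom 39.3 to 69.0), so none was a duplicate.

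From these, levels were taken as log2(TPM + 1). Ratios are of TMM-normalized CPM with 0.1 added, at a mean of at least 10 counts. Variability came from edgeR 4.0.16, run in R 4.3.3 (counts rounded, filterByExpr, TMM, intercept only, robust prior), each quasi-dispersion tested one-sided against the trend with Benjamini-Hochberg adjustment over all genes. The fit and the motif search were run on simulated data as a check of the code only. For the fit, the simulated counts had the same dispersion in every gene, lower than the common value fitted here. Promoters are from RefSeq. For 28 of 40 member windows, at least the first 20 bases after the start occurred in a GENCODE M21 transcript of the same gene. The match could lie anywhere in the transcript, so it does not show that the starts agree. Windows with no such match include those of Mcm5, Mcm6, Mki67, Ccnb2 and Kif11, whose sites are printed at their RefSeq starts, and that of E2f2, a second RefSeq start that the rule selects and that is not printed. Python 3.11.15 ran the other steps, with pandas 2.3.3 and numpy 2.4.6, and figures used matplotlib 3.10.9.

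Members, lists and tests were chosen with earlier results of these data known. All members are named. Of other lists, the 3 highest and the lowest pathway genes, the highest cell type marker and Col1a1 are named by rule, and any other name was chosen after its values were seen. The alternatives were another quantification, rescaled TPM, other pseudocounts, filters and thresholds, other size factors and leaving out each library.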

Additional observations from a re-analysis of the deposited data

How the results depend on the processing

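Of 102 alternative values for 21 results, 80 stayed within the spread between libraries or within 1.5 times a count, 21 moved further and 1 reversed. The order of the 3 classes held in each alternative for the class medians and their differences. Read-based quantification put the median log2(TPM + 1) of G1 regulators, S phase genes and mitotic genes at 3.45, 2.94 and 1.73, and TPM rescaled over nuclear genes, protein-coding and long non-coding, put it at 3.996, 3.31 and 2.06, where the median of all protein-coding genes rose by 0.70 as well. A pseudocount of 0.1 gave 1.99 for S phase and 0.57 for mitotic genes, and differences of 1.42 between S phase and mitotic genes and 2.15 between G1 regulators and mitotic genes, the latter being 1.93 with rescaled TPM and 1.72 to 1.83 without 1 library. The median log2 ratio of replicate 2 over 3 for S phase genes turned from -0.093 to 0.084 in read-based counts. For mitotic genes that ratio shrank from -0.64 to -0.31 in read-based counts and to -0.43 at a mean of at least 50 counts. Their ratio of replicate 1 over 3 shrank from -0.86 to -0.61 and -0.69 in these settings. Replicate 3 stayed the highest library for 11 to 13 of 13 mitotic genes under other scalings, which were added after seeing the data.

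The number of genes called by edgeR was 675 with no filter on low counts and, without 1 library, 0 to 78, the 0 falling without replicate 2 with 727 genes at an unadjusted p under 0.05. Without robust weights edgeR called 0 genes, with 747 at an unadjusted p under 0.05. Members called were 0 in read-based counts (4 at an unadjusted p under 0.05), 0 without robust weights (2 at an unadjusted p under 0.05), and 0 to 1 without 1 library, the 0 falling without replicate 2 or 3 (2 and 4 at an unadjusted p under 0.05). The cause of these moves was not tested. Low mitotic genes rest on few counts. For counting error only, 3 counts are a rounded one-sided 95% upper bound for a count of 0. They equal 0.254, 0.174 and 0.154 CPM in replicates 1, 2 and 3. No paired analysis was possible because the labels give 1 group.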

Other observations

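The values given here were chosen after they were seen. The G1 inhibitor gene Cdkn1c, encoding p57, was at 0.38, 0.44 and 16.04 TPM in replicates 1, 2 and 3, and Cdkn2a, which encodes p16 and p19Arf, was at 0, 0.12 and 2.13 TPM. Ube2c, the ubiquitin-conjugating enzyme gene of the anaphase-promoting complex, was listed at 0 in replicates 1 and 2 and at 1.88 TPM in replicate 3. The stromal list, at 2.12, 3.00 and 631 TPM, was high in the same library, and its part was not tested.

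The deposited TPM lay outside its own deposited interval in 6 of 138 values of the members, from 4 genes. Ccnd3 did so in all 3 libraries: its 4.98, 7.31 and 10.45 TPM stand beside intervals from 7.06 to 14.2, from 9.08 to 19.1 and from 11.7 to 18.9 TPM. For Ccnd2 in replicate 1, the interval ran from 2.86 to 153 and did not hold the deposited value of 2.54 TPM. In replicates 2 and 3 it ran from 1.501 to 3.52 and from 10.8 to 13.6 TPM and held the values of 1.62 and 11.86 TPM. What level the interval has is not stated in the files.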
